A study of Homo sapiens with 17 samples.

Results

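GFP+mCherry+ cells, sorted from differentiating H9 human embryonic stem cells that carry a GFP reporter of SHOX2 and an mCherry reporter, were compared at day 40 and day 25 of directed differentiation. The comparison used 5 of the 17 RNA-seq libraries of the series, numbers 1, 4 and 7 at day 25 and numbers 10 and 13 at day 40, and every gene with at least 1 FPKM in at least 2 of the 5, which were 14153 of the 20218 genes in the table. FPKM scales the fragments of a gene by its transcript length and by the fragments mapped in the library. All 5 libraries came from a single reporter line, labelled SHOX2, on the H9 background, and their cell type is labelled as sinoatrial node-like. Which gene drives mCherry is not labelled, and it was assumed to be MYH6, the atrial cardiac myosin heavy chain gene. The growth protocol describes a cardiomyocyte procedure and a sinoatrial procedure that share a first step with CHIR99021, BMP4 and Activin A and a later step with XAV939. Only the sinoatrial procedure adds cucurbitacin, retinoic acid, SU5402, Tyrphostin AG 490 and chidamide, and the labels do not say which procedure gave which sort. The 2 other populations were GFP-mCherry+ and GFP-mCherry- cells from the same line, with 3 libraries at each day. They served to show whether a difference between the days was also seen there, and they entered the same fit. The spread behind the p-values was therefore estimated over all 17 libraries. No label says that libraries came from separate cultures, so the p-values measure the spread between libraries, which may be technical.

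The sinoatrial node is the primary pacemaker of the heart. Its myocytes fire spontaneously through HCN channels and calcium release, and the transcription factors SHOX2, TBX3, TBX18 and ISL1 keep them apart from the contracting atrial muscle, which depends on NKX2-5 and secretes natriuretic peptides. Cardiac tissue also holds resident macrophages, phagocytes that arise from the blood lineage under the transcription factor PU.1 (the product of SPI1), depend on CSF1R signalling, clear debris, present antigen on MHC class II and release chemokines.

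The FPKM of the 5 libraries summed to between 565805 and 587084, and the read depth behind them is unknown, so no counting error is given. Library 13 had the fewest genes above 0 (16489, against 17140 to 17568 in the others), and only 689 of its genes lay between 0 and 0.1 FPKM, against 1186 to 1257. Its correlation with library 10 across genes (r = 0.945 on log2 values) was about that of library 1 with libraries 4 and 10 (0.948 and 0.943), while libraries 4 and 7 correlated at 0.983. Libraries 1 and 13 stood apart in this sense, and results that rest on either are given with and without it. With 1 of the 2 day-40 libraries left out, the remaining one is assumed to vary like the libraries of the other groups.

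At day 40 322 genes were higher than at day 25 (2.28% of those tested) and 277 were lower (1.96%), by limma on log2(FPKM + 1) at an adjusted p under 0.05. These shares are the background for every list count in GFP+mCherry+ cells below. All differences below are day 40 minus day 25 on that scale, with the standard error, and they understate the change of genes near or under 1 FPKM. The 2 days' libraries did not overlap in any of the 599 called genes, nor in 33.9% of all genes tested, and the median difference of all genes was -0.04. The number of higher genes ranged from 200 (without library 13) to 564 (without library 10), and that of lower genes from 31 (without library 13) to 541 (without library 1). The counts were 505 and 541 without library 1, 234 and 75 without library 4, 208 and 58 without library 7, 564 and 472 without library 10, and 200 and 31 without library 13. Of the 322 higher genes 193 were called again without library 13 and 306 without library 1, and of the 277 lower genes 21 and 243. The split also moved to 362 higher and 144 lower after a correction for transcript GC content and to 604 and 925 with limma's sample quality weights. With only the 5 libraries fitted, it was 156 and 150. The higher genes were led by genes of macrophages and inflammation, and the lower genes by sarcolipin, apolipoproteins and natriuretic peptide B, as the plot of difference against level shows.

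**Figure D1:**
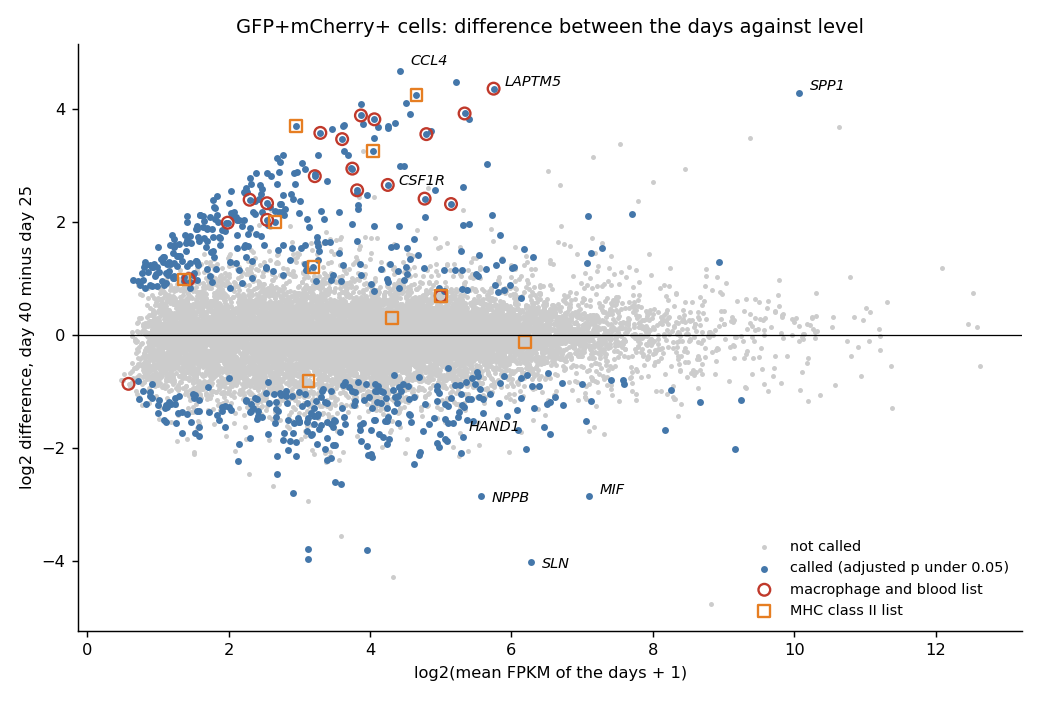
Each point is 1 of the 14153 genes tested in GFP+mCherry+ cells. The horizontal axis is the log2 of the mean of the FPKM of the days plus 1 and the vertical axis the log2 difference, day 40 minus day 25, with the 599 called genes in blue, the macrophage and blood list circled in red and the MHC class II list boxed in orange. CCL4, LAPTM5 and SPP1 lie between 4.28 and 4.67 and SLN lies at -4.02.

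The reporter and pacemaker genes showed no difference between the days that passed the test. SHOX2 (chr3:157814948-157824292 in hg19), the gene behind GFP, stood at 48.99, 138.9 and 87.4 FPKM in libraries 1, 4 and 7 at day 25 and at 58.5 and 90.2 FPKM in libraries 10 and 13 at day 40. The libraries of the days overlapped (difference -0.21 ± 0.36, adjusted p = 0.801 by limma), and each lay far above the group means of GFP-mCherry+ cells (1.32 and 1.87 FPKM at day 25 and 40) and GFP-mCherry- cells (0.427 and 0.672 FPKM). MYH6 stood at 229, 463 and 455 FPKM at day 25 and at 384 and 203 FPKM at day 40, again overlapping (-0.38 ± 1.81, adjusted p = 0.94). The wide error of MYH6 reflects a value listed at 0 in 1 library of another group, number 17, and reads shared with its neighbour MYH7 could not be checked.

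The label of a sinoatrial node-like population was checked against the genes that define it. TBX3, which represses the working myocardial programme in the node, stood at 27.2, 44.03 and 35.03 FPKM at day 25 and at 38.2 and 34.01 FPKM at day 40 (0.05, adjusted p = 0.95). HCN4, the main pacemaker channel, stood at 31.4, 43.5 and 46.1 FPKM and then at 42.3 and 30.5 FPKM (-0.14 ± 0.37, adjusted p = 0.872). ISL1 lay between 6.72 and 14.1 FPKM and TBX18 between 13.8 and 27.5 FPKM in all 5 libraries, and for TBX3, HCN4, ISL1 and TBX18 the libraries of the days overlapped. The markers were present at both days, but not all set these cells apart. HCN4 lay between 26.7 and 55.1 FPKM in GFP-mCherry+ cells, a range that holds all 5 values above, and TBX3 between 12.8 and 30.9 FPKM in the 2 other populations. NKX2-5, which the head of the node is known to lack, was present as well, at 8.87, 14.0 and 15.8 FPKM at day 25 and at 16.3 and 2.68 FPKM at day 40. Its day-40 libraries differed by more than the 3 of day 25 (-0.77, adjusted p = 0.524).

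None of the 14 genes of the pacemaker transcription factors and signals list and none of the 12 tested pacemaker ion channel genes passed the test, with medians of -0.08 and -0.13. The first median lay on either side of 0 among the alternatives (-0.19 without library 1 and 0.11 without library 4). Without library 1, 2 of the 14 and 1 of the 12 fell. The T-box gene TBX2 (-0.85) and the ligand gene BMP4 (-0.84) were lowest, and MEF2C (0.82), a transcription factor of all cardiac muscle, was highest. Of the channels, the calcium channel genes CACNA1D and CACNA1G differed by -0.06 and -0.20, and CACNA1H by -0.97. The 11 tested genes of conduction, connexins and sodium channels likewise held no called gene (median -0.17). Without library 1, 1 of the 11 rose and 2 fell, and without library 10, 1 rose. Among them were the gap junction genes GJA1 (-0.19) and GJA5 (1.03, adjusted p = 0.123), which encodes the atrial connexin and passed the test only without library 1 among the libraries left out in turn (1.35, adjusted p = 0.0385). The plot of pacemaker and myocardial genes shows SHOX2, TBX3 and HCN4 level across the days.

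**Figure D2:**
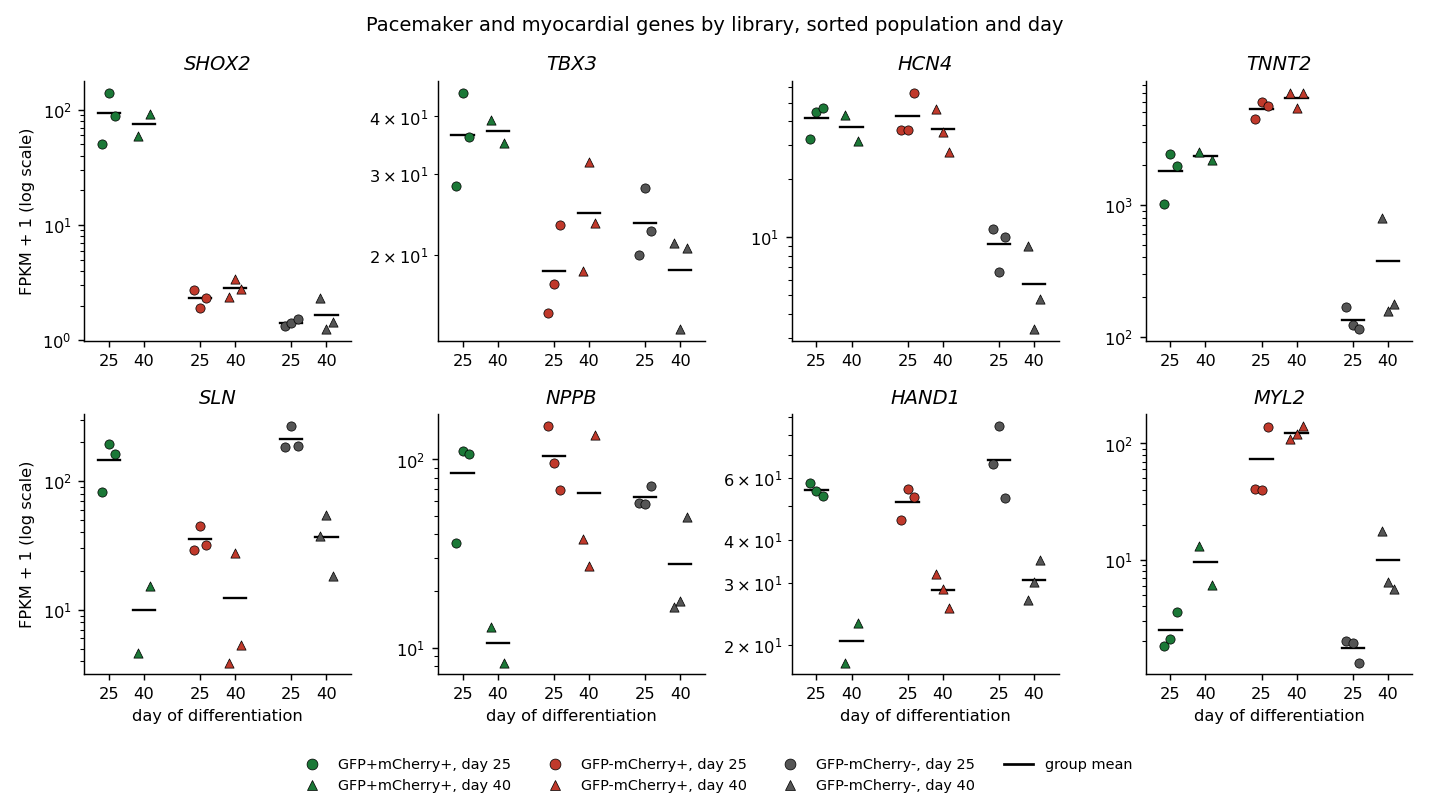
FPKM + 1 on a log axis of 8 pacemaker and myocardial genes in every library, by day and sorted population, with GFP+mCherry+ cells in green, GFP-mCherry+ cells in red and GFP-mCherry- cells in grey, and a bar at each group's mean. In GFP+mCherry+ cells the libraries of the days overlap for SHOX2, TBX3, HCN4 and TNNT2 and lie apart for SLN, NPPB, HAND1 and MYL2, of which MYL2 did not pass the test (adjusted p = 0.0603).

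SLN, NPPB and HAND1, known as genes of atrial or embryonic heart muscle, fell by the widest margin among the cardiac genes named. At day 25 they were also present in GFP-mCherry- cells, where TNNT2 was at most 167.7 FPKM. There SLN stood at 182.9, 265.7 and 187.7 FPKM, against at most 43.85 FPKM in GFP-mCherry+ cells. HAND1 stood at 64.7, 83.48 and 51.69 FPKM in GFP-mCherry- cells, and NPPB at 57.98, 57.29 and 71.02 FPKM. Whether the falls came from heart muscle cells was not tested. SLN (chr11:107578104-107590419 in hg19) encodes sarcolipin, a small inhibitor of the calcium pump that is abundant in atrial muscle. It stood at 81.5, 191.5 and 160.2 FPKM at day 25 and at 3.62 and 14.4 FPKM at day 40, so that the highest day-40 library lay far below the lowest of day 25. SLN fell by 4.02 ± 0.68 (adjusted p = 0.00231), and the call held in every alternative run. NPPB (chr1:11917521-11918988), the natriuretic peptide B gene, which is induced by wall stress, stood at 34.8, 109.9 and 105.8 FPKM and then at 11.9 and 7.33 FPKM. NPPB fell by 2.86 ± 0.63 (adjusted p = 0.0153), and the call was lost without library 4 (adjusted p = 0.0712), 7 (0.0719) or 13 (-2.54, adjusted p = 0.196). HAND1 (chr5:153854532-153857824), a transcription factor of the early left ventricle and of extraembryonic mesoderm, stood at 57.1, 54.3 and 52.5 FPKM and then at 16.8 and 22.2 FPKM. Replicates agreed closely at each day (54.6 ± 2.32 FPKM, SD, n = 3, and 19.5 ± 3.78 FPKM, n = 2), HAND1 fell by 1.45 ± 0.20 (adjusted p = 0.000426), and the call held in every alternative run.

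HAND1 and NPPB were the 2 called genes of the 14 in the list of working myocardium transcription factors and peptides, whose median was -0.68, and 0.11 without library 13. Of the 14, 4 fell without library 1 and 1 without library 4, 7 or 13. NPPA, the other natriuretic peptide gene, stood at 238, 245.5 and 248 FPKM at day 25 and at 339.5 and 134 FPKM at day 40, on both sides of the day-25 libraries. NPPA did not pass the test (-0.19, adjusted p = 0.892). Also in the list, HAND2 (-0.84), GATA4 (-0.66), IRX4 (-0.70) and HOPX (0.75) did not pass the test. HAND1 also fell in GFP-mCherry+ cells (by 0.84, adjusted p = 0.0177) and in GFP-mCherry- cells (by 1.12, adjusted p = 0.00497), and SLN fell in GFP-mCherry- cells (by 2.65, adjusted p = 0.0299) but did not pass the test in GFP-mCherry+ cells (-2.06, adjusted p = 0.0666). None of these differences between populations passed its own test.

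The contractile apparatus gave a single call. Of 28 tested sarcomere genes only FLNC, which encodes the actin cross-linker filamin C, was called (fell by 1.15, adjusted p = 0.0435), and the median was -0.11. The FLNC call was lost without library 4 (adjusted p = 0.111), 7 (0.15) or 13 (-0.87, adjusted p = 0.421) and after GC correction (0.133). TNNT2, cardiac troponin T, stood at 1006, 2427 and 1955 FPKM at day 25 and at 2490 and 2180 FPKM at day 40 (0.47 ± 0.52, adjusted p = 0.667). MYL7, the atrial myosin light chain gene, stood at 3876, 10130 and 8829 FPKM and then at 6433 and 3566 FPKM, so that both genes overlapped between the days. MYL2, the ventricular light chain gene, lay higher in both day-40 libraries (12.1 and 5.03 FPKM, against 0.798, 1.08 and 2.58), with a difference of 1.90 ± 0.54 that missed the threshold (adjusted p = 0.0603). Summed over the 30 genes of the list, sarcomere transcripts came to 9978, 22420 and 19450 FPKM at day 25 and 17090 and 11060 FPKM at day 40. In these bulk libraries fewer cells of a type and less RNA per cell cannot be told apart, which holds for every level given here. SLN was the only called gene of 17 in the calcium handling list (median -0.07), where RYR2, the calcium release channel gene, stood at 0.02, the calcium pump gene ATP2A2 at -0.14 and its inhibitor gene PLN at 0.10.

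Macrophage genes showed the largest rise of all lists described. In the list of macrophage and blood genes, 17 of the 20 tested members rose and 0 fell, beside 2.28% and 1.96% of all genes, and the median difference was 2.60 against -0.04 over all genes. Members such as C1QB and SPI1 passed the filter through the day-40 libraries alone, so this count and median partly follow from the filter. The same holds in other lists, as for HLA-DRA, IL8, CX3CR1 and PHOX2A, and for SASH3 and CHRNA1. From 14 to 18 members rose and at most 1 fell in every alternative, with 14 without library 10, 15 without library 7 and 16 without library 13. Summed over its 27 genes the list came to 61.7, 76.9 and 70.2 FPKM at day 25 and to 833.5 and 355.3 FPKM at day 40, so that library 10 held more than library 13 and both lay above every day-25 library.

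LAPTM5 (ENSG00000162511, chr1:31205316-31230667), a lysosomal membrane protein of blood cells, stood at 2.36, 5.03 and 3.94 FPKM at day 25 and at 141 and 62.1 FPKM at day 40. It rose by 4.35 ± 0.50 (adjusted p = 7.65e-05). C1QB (chr1:22979255-22988031), a chain of the complement starter C1q that macrophages secrete, stood at 0.332, 0.693 and 0.772 FPKM and then at 41.5 and 11.8 FPKM (3.88 ± 0.51, adjusted p = 0.000204), and C1QA rose with it (3.57, adjusted p = 7.94e-05). CSF1R (chr5:149432854-149492935), the receptor on which macrophage survival depends, stood at 2.30, 4.68 and 5.18 FPKM and then at 44.4 and 19.6 FPKM. CSF1R rose by 2.65 ± 0.42 (adjusted p = 0.00135). PTPRC, which encodes the pan-leukocyte surface protein CD45, stood at 1.57, 0.788 and 0.569 FPKM and then at 8.92 and 8.44 FPKM (2.33 ± 0.35, adjusted p = 0.000832), and it was the one of these genes with nearly equal day-40 libraries. MS4A7 rose by 3.81 ± 0.37 (adjusted p = 1.9e-05), the Fc receptor gene FCGR3A by 3.46 (adjusted p = 7.25e-05) and FCER1G, the signalling chain of Fc receptors, by 3.91 ± 0.56 (adjusted p = 0.000462). The calls of LAPTM5, C1QA, C1QB, CSF1R, PTPRC, MS4A7, FCGR3A and FCER1G held in every alternative run. CD68, a lysosomal glycoprotein of macrophages, rose by 2.31 ± 0.49 (adjusted p = 0.0126) but missed the threshold without library 7 (adjusted p = 0.0598) or 10 (1.66, adjusted p = 0.0938). FCGR3A has a near-identical copy, FCGR3B, between which the authors' counting could split reads.

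**Figure D3:**
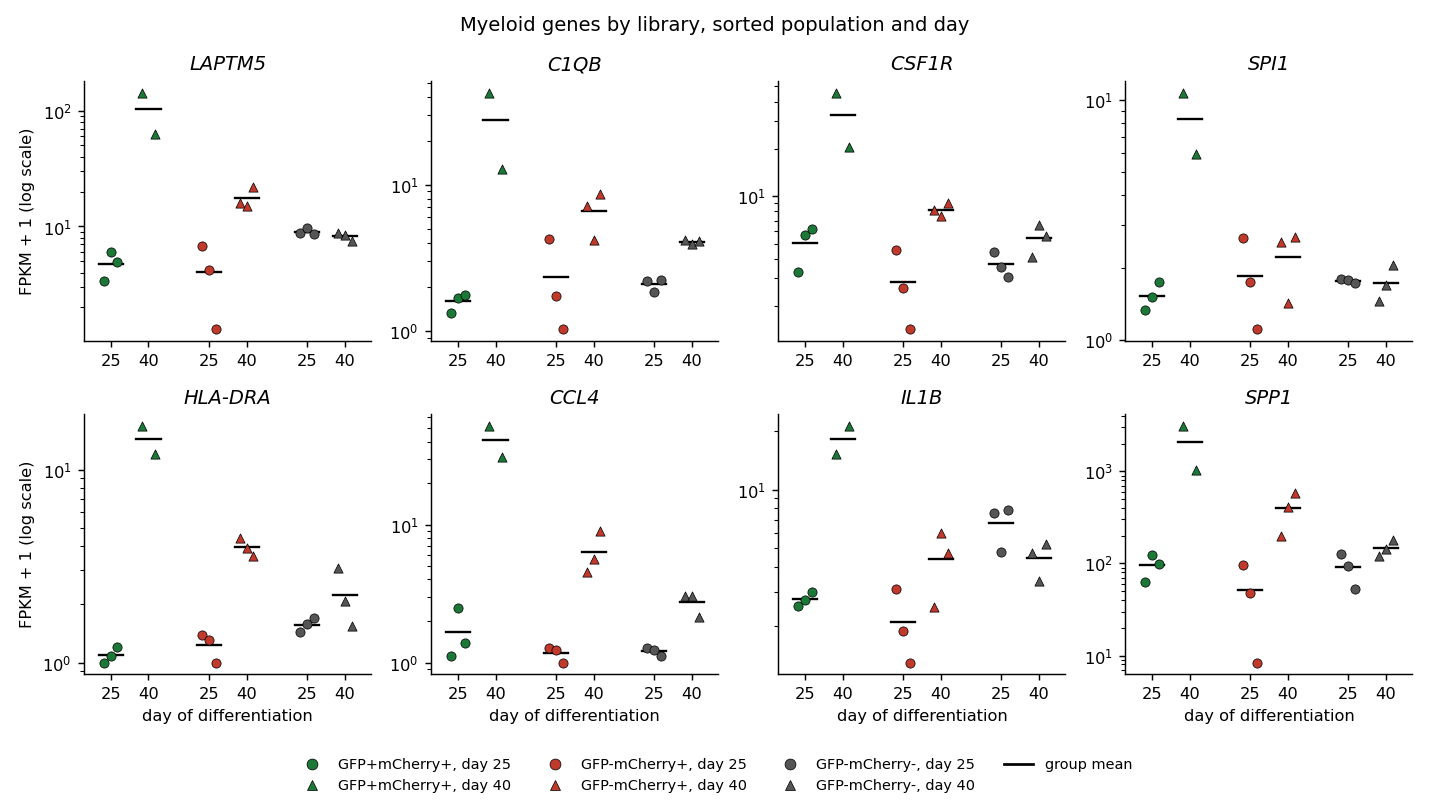
FPKM + 1 on a log axis of 8 myeloid genes in every library, by day and sorted population, coloured as in the plot of cardiac genes, with a bar at each group's mean. In each panel both day-40 libraries of GFP+mCherry+ cells (green triangles) lie above every other library shown, as for LAPTM5, whose 2 values were 141 and 62.1 FPKM, and library 10 lies above library 13 in every gene but IL1B.

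Markers of particular blood cells are given by level. CD163, a haemoglobin scavenger receptor of macrophages, stood at 0.866, 2.08 and 0.671 FPKM at day 25 and at 22.4 and 8.41 FPKM at day 40 (2.80, adjusted p = 0.000356). CD14, a monocyte marker, stayed below the filter of 2 libraries, with 0.370, 0.348 and 0.252 FPKM and then 2.92 and 0.843 FPKM. CCR2, the receptor of recruited monocytes, was listed at 0 in all 5 libraries, and MRC1, a receptor of tissue macrophages, at 0 in 4 of 5 with 0.0175 FPKM in library 10. The tested members that were not called were CD74, given with MHC class II, and 2 erythroid genes. Of these HBE1 differed by -0.87 (adjusted p = 0.0988) and was the only tested member of the macrophage and blood list below 0. The globin gene HBA1 was listed at 0 in both day-40 libraries. Markers of other blood lineages came from 4 lists written after values were seen. The T, B and NK cell list of 14 genes summed to between 3.62 and 6.29 FPKM at day 25 and 3.47 and 10.9 FPKM at day 40, with 4 to 5 and 4 to 7 genes at 0. MS4A1, a defining B cell gene, and MPO, a member of the granulocyte list, were at 0 in all 5 libraries. CD3D, the defining T cell gene, was at 0 in both of day 40. The granulocyte list of 12 genes summed to 37.6 to 43.1 FPKM at day 25 and 62.3 to 69.3 FPKM at day 40, and the erythroid list of 14 to 5.65 to 16.1 and 15.8 to 26.02 FPKM. None of the 3, 5, 4 and 8 tested genes of the T, B and NK, granulocyte, erythroid and blood progenitor lists was called, with medians of 0.12, 0.62, 0.64 and 0.69. Above 0 lay 4 of the 5 granulocyte genes and 3 of the 4 erythroid genes, and 1 of each list lay below. With a library left out, 1 granulocyte and 1 progenitor gene rose without library 1, 1 gene of the T, B and NK list rose without library 13, and 1 erythroid gene fell without library 1 and 1 rose without library 10. The share of macrophages among the sorted cells was not measured, and its part in the other rises was not tested.

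SPI1 (chr11:47376411-47400127), the gene of PU.1, stood at 0.330, 0.512 and 0.744 FPKM at day 25 and at 9.68 and 4.92 FPKM at day 40, without overlap. SPI1 rose by 2.39 ± 0.35 (adjusted p = 0.00066), and the call held in every alternative that tested it, the filter at 5 FPKM leaving it out. It was 1 of 4 called among the 11 tested myeloid transcription factors, a list written after values were seen (median 1.07), with RUNX3 (1.87, adjusted p = 0.000774), IRF5 (1.38, adjusted p = 0.00113) and TFEC (2.88, adjusted p = 0.0422). IRF8 (0.42, adjusted p = 0.614) and CEBPB (0.38, adjusted p = 0.689) did not pass. PU.1 binds purine-rich sites with the core GAGGAA. To show what such letters look like, members of the macrophage and blood list that rose were picked because their promoters hold GAGGAA or its reverse complement TTCCTC. The 4 of these with the smallest adjusted p were MS4A7, CD163, TYROBP and ITGAM. Members without a match were not printed, so the matches shown were fixed by this choice. The 250 bases before each start site are printed from RefSeq (GRCh38.p14), 5′ to 3′ on the gene's strand, with the matches in capitals. The intervals are chr11:60378282-60378531 on the plus strand, chr12:7503778-7504027 on the minus strand, chr19:35908296-35908545 on the minus strand and chr16:31259725-31259974 on the plus strand.
MS4A7: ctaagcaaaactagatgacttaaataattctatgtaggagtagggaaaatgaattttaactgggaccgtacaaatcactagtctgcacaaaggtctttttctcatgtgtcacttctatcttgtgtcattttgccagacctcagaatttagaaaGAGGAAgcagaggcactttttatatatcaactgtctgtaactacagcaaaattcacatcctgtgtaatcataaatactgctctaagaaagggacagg
CD163: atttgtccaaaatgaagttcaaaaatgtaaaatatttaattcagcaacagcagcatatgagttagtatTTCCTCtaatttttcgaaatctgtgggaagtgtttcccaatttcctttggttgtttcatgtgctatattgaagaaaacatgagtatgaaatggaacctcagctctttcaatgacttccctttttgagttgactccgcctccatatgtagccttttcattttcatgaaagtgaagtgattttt
TYROBP: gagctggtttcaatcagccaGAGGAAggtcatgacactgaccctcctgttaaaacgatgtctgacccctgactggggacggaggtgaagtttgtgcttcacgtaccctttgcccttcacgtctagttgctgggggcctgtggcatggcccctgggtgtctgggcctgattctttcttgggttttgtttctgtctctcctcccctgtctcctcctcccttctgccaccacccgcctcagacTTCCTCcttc
ITGAM: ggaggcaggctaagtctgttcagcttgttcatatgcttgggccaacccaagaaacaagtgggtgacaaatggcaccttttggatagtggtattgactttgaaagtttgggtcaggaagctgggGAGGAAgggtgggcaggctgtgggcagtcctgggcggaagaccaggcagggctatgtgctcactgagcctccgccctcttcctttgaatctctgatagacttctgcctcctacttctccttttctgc
The first base of the match lies 97 bases before the start in MS4A7, 182 in CD163, 230 and 10 in TYROBP and 127 in ITGAM. TYROBP encodes the adaptor of myeloid activating receptors and rose by 3.55 (adjusted p = 0.00235), and ITGAM, the CD11b integrin chain, by 1.98 (adjusted p = 0.00536). Either strand held these letters in 6393 of 27305 promoters of this length (23.4%). Only 13 of the 17 genes that rose had a promoter in the table, too few for a share of the list, and a match is a description of letters, not of binding.

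MHC class II genes, which let macrophages and related cells present antigen to T cells, rose in part. Of 10 tested members 5 rose and 0 fell (median 1.09), and 4 to 6 rose in the alternatives. HLA-DRA (chr6:32407619-32412823), the shared alpha chain of HLA-DR, stood at 0, 0.0785 and 0.210 FPKM at day 25 and at 15.8 and 11.0 FPKM at day 40. It rose by 3.70 ± 0.27 (adjusted p = 2.62e-06), among the most certain differences of the comparison. HLA-DMB, which helps to load peptides, rose by 4.23 ± 0.48 (adjusted p = 7.65e-05), from 1.49, 2.41 and 0.583 FPKM to 64.3 and 29.7 FPKM. The protease gene CTSS rose by 3.25 (adjusted p = 0.000137) and HLA-DPA1 by 1.99 (adjusted p = 0.0016). HLA-DMA, the partner of HLA-DMB, rose by 1.20 (adjusted p = 0.035) but missed the threshold without library 4 (adjusted p = 0.0842), 7 (0.115) or 10 (0.72, adjusted p = 0.207). CD74, the invariant chain, was already at 23.01, 21.1 and 25.9 FPKM at day 25 and stood at 46.2 and 31.1 FPKM at day 40, which did not pass (0.68, adjusted p = 0.186), and HLA-DRB1 differed by 0.30 (adjusted p = 0.569). HLA genes are polymorphic and alike, so reads may be split between them.

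MHC class I, which presents peptides on nearly all cells, gave 1 call. Of 15 members only HLA-B rose (median 0.30), from 60.8, 27.2 and 27.8 FPKM to 101 and 107.5 FPKM (1.51, adjusted p = 0.0228). The HLA-B call was lost without library 4 (adjusted p = 0.0972), 7 (0.107), 10 (0.0554) or 13 (0.191). Without library 1, 2 of the class I list rose, and without library 10, 1 fell. HLA-C (0.35) did not pass. None of 32 interferon-stimulated genes was called (median 0.40), although 4 rose and 1 fell without library 10, and MX1 (0.77) and ISG15 (-2.04, adjusted p = 0.114) differed in sign.

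Chemokines made by activated phagocytes were among the strongest differences. CCL4 (chr17:34430983-34433014) stood at 0.112, 1.49 and 0.389 FPKM at day 25 and at 50.6 and 29.8 FPKM at day 40 (0.663 ± 0.727 FPKM, SD, n = 3, and 40.2 ± 14.7 FPKM, n = 2). It rose by 4.67 ± 0.35 (adjusted p = 2.62e-06), the largest rise of any gene named here, and CCL3 rose by 4.11 ± 0.40 (adjusted p = 2.37e-05), from at most 1.67 FPKM to 56.8 and 27.3 FPKM. Both genes have near-identical copies, and the copy CCL4L2, named after its values were seen, also rose (2.12, adjusted p = 0.000356), so the split of reads between CCL4 and CCL4L2 is uncertain. IL8, the neutrophil chemokine, stood at 0.394, 0.906 and 0.640 FPKM and then at 30.1 and 23.4 FPKM (4.08 ± 0.44, adjusted p = 6.46e-05). Of the 16 tested members of the chemokine and cytokine list, 3 rose and 1 fell (median 0.93), with 7 higher without library 1 and 2 without library 4. IL1B, the gene of interleukin 1 beta, stood at 1.52, 1.72 and 1.97 FPKM and then at 14.3 and 20.1 FPKM, with library 13 above library 10, unlike most macrophage genes. IL1B rose by 2.72 ± 0.38 (adjusted p = 0.000437). CXCL2 rose by 1.94 (adjusted p = 0.0152) and the scavenging chemokine receptor gene ACKR3 fell by 0.91 (adjusted p = 0.0361). Both calls were lost without library 4 (adjusted p = 0.0743 and 0.0992) and 13 (0.301 and 0.377), and that of ACKR3 also without library 7 (0.118). CXCL12, CCL2, CXCL14 and IL6 did not pass.

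Genes of phagocyte function were counted in 6 lists written after values were seen, and part of each list rose. Of 14 Fc gamma receptor and signalling genes 11 rose (median 1.81), among them LCP2, an adaptor of immune receptors (3.71, adjusted p = 1.74e-05), and the inhibitory receptor gene FCGR2B (2.85, adjusted p = 3.26e-05). Of 5 tested genes of the phagocyte NADPH oxidase, the enzyme of the oxidative burst, 3 rose (median 1.66), while the list summed to 85.95 to 93.4 FPKM at day 25 and to 112.8 and 61.2 FPKM at day 40. CYBB, its catalytic subunit, stood at 1.31, 2.11 and 1.03 FPKM and then at 28.9 and 15.6 FPKM (3.19, adjusted p = 7.94e-05). Of 7 Toll-like receptor genes 4 rose (median 1.22), with TLR2, a sensor of bacterial lipoproteins, at 2.39 (adjusted p = 7.65e-05) and TLR7, a sensor of single-stranded RNA, at 1.69 (adjusted p = 0.000204). Of 8 leukocyte integrin and adhesion genes 6 rose (median 1.88), with ITGAL at 3.12 (adjusted p = 1.77e-05). Of 7 tested scavenger receptor genes 3 rose (median 1.92), with MSR1, which takes up modified lipoprotein, at 3.05 (adjusted p = 3.23e-05). The list of resident macrophage genes had 5 of 9 higher (median 1.34), with CX3CR1, the fractalkine receptor gene, at 0.200, 0.156 and 0.472 FPKM and then at 3.62 and 5.21 FPKM (2.08, adjusted p = 7.65e-05). The calls of LCP2, FCGR2B, CYBB, TLR2, TLR7, ITGAL, MSR1 and CX3CR1 held in every alternative that tested the gene. CX3CR1 was not tested with the filter at 5 FPKM.

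Of 11 tested inflammasome and interleukin 1 genes, a list also written after values were seen, 5 rose and 1 fell. CASP4, a sensor of intracellular lipopolysaccharide, stood at 15.5, 8.45 and 7.86 FPKM at day 25 and at 70.2 and 64.0 FPKM at day 40. It rose by 2.61 (adjusted p = 0.000477), with close day-40 libraries, and also rose in GFP-mCherry- cells (1.61, adjusted p = 0.0182). CASP1, which cleaves interleukin 1 beta, stood at 14.4, 1.76 and 1.17 FPKM and then at 31.7 and 38.3 FPKM. On the log2 scale library 1 was nearer to day 40 than to the other day-25 libraries. CASP1 rose by 2.99 ± 0.72 (adjusted p = 0.0259), a call lost without library 4 (adjusted p = 0.107), 7 (0.122), 10 (0.0578) or 13 (0.221). GSDMD, the pore-forming gasdermin, fell by 0.99 (adjusted p = 0.0307). The list had 4 higher and 0 lower genes without library 4, 7 or 13, and 3 and 0 without library 10.

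Genes of lipid-laden macrophages, most of them lipid-handling, formed a further group. SPP1 (chr4:88896819-88904562), the gene of osteopontin, a secreted matrix and cytokine-like protein, stood at 62.6, 123.5 and 96.4 FPKM at day 25 and at 3082 and 1031 FPKM at day 40. SPP1 rose by 4.28 ± 0.75 (adjusted p = 0.00318). At day 25 SPP1 also stood at 51.9 to 125.4 FPKM in GFP-mCherry- cells, where C1QB was at most 1.24 FPKM. Which cells gave this SPP1 was not tested. TREM2, a lipid receptor, stood at 0.997, 2.12 and 1.44 FPKM and then at 42.9 and 16.4 FPKM (3.48 ± 0.41, adjusted p = 8.53e-05). APOC2, the cofactor of lipoprotein lipase, rose by 3.90 ± 0.41 (adjusted p = 4.05e-05), and LPL, that lipase, stood at 0.658, 1.43 and 0.534 FPKM and then at 7.98 and 6.59 FPKM (2.17 ± 0.33, adjusted p = 0.000902). LIPA, the acid lipase, was the one called gene of 18 in the lysosome list (median 0.25) and stood at 31.02, 22.7 and 20.2 FPKM and then at 111.8 and 63.7 FPKM (1.76 ± 0.31, adjusted p = 0.0029). These 5 calls held in every alternative run. In the list of lipid-laden macrophage genes, written after values were seen, 7 of 11 rose (median 2.09), while GPNMB (1.23, adjusted p = 0.0707) and APOE (-1.001, adjusted p = 0.153) did not pass.

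The macrophage genes were also followed in the other populations. GFP-mCherry+ cells had 90 higher (0.636%) and 556 lower genes (3.93%) between the days, and GFP-mCherry- cells 173 (1.22%) and 237 (1.67%). These counts cover only genes that passed the filter in the GFP+mCherry+ libraries, so genes seen only in the other populations were left out. In GFP-mCherry+ cells 10 of the 20 macrophage and blood genes rose (median 1.41), and the list summed to 13.6 to 78.3 FPKM at day 25 and 109.9 to 164.9 FPKM at day 40. In GFP-mCherry- cells 0 rose and 1 fell (median 0.41), with sums of 80.4 to 95.0 FPKM and 89.7 to 104.9 FPKM. LAPTM5 rose by 2.39 in GFP-mCherry+ cells (adjusted p = 0.0107), differed by -0.13 in GFP-mCherry- cells (adjusted p = 0.919), and its change in GFP+mCherry+ cells exceeded that of GFP-mCherry- cells (4.48, adjusted p = 0.00496) but not, by the test, that of GFP-mCherry+ cells (1.96 ± 0.67, adjusted p = 0.516). Across all genes the change differed from that of GFP-mCherry+ cells in 1 gene (0.00707%) and from that of GFP-mCherry- cells in 160 (1.13%), 127 of them more positive in GFP+mCherry+ cells, and 924 and 1100 genes had an unadjusted p under 0.05. The first count was 13, 53 and 37 without library 1, 10 and 13 and 0 without library 4 or 7, and the second 102 without library 7. Of the 160 genes 7 were of the macrophage and blood list and 4 of the MHC class II list. Because the filter used the GFP+mCherry+ libraries alone, the direction of the 160 may partly follow from it, which was not tested. The 1 gene was SASH3, a lymphocyte and myeloid signalling adaptor, which stood at 0.496, 0.350 and 0.239 FPKM and then at 10.4 and 12.2 FPKM, rose by 3.17 ± 0.25 (adjusted p = 5.81e-06), and differed by 0.52 in GFP-mCherry+ cells (adjusted p = 0.228). The difference of 2.65 ± 0.34 (adjusted p = 0.0117) missed the threshold without library 4 (2.65, adjusted p = 0.0507) or 7 (2.59, adjusted p = 0.0622). SPI1 differed by 0.31 in GFP-mCherry+ cells (adjusted p = 0.692) and by -0.04 in GFP-mCherry- cells.

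Of the 322 higher genes 61 (18.9%) were also called higher in GFP-mCherry+ cells, where they were 67.8% of the 90, and 17 (5.28%) in GFP-mCherry- cells, where they were 9.83% of the 173. Of the 277 lower genes 128 (46.2%) were also lower in GFP-mCherry+ cells (23% of the 556) and 75 (27.1%) in GFP-mCherry- cells (31.6% of the 237). The populations share no libraries, but each gene's spread was estimated over all of them together. The labels do not say whether they came from separate cultures. After GC correction 144 genes were lower in GFP+mCherry+ cells and 30 in GFP-mCherry+ cells, so that the shared falls between these populations depended on whether GC content was corrected.

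Immediate early genes, which respond within minutes to stress and to cell handling, had 3 of 27 called, all higher (median 0.59), with 7 without library 1 and 1 without library 13. NR4A2, an orphan nuclear receptor, stood at 2.84, 1.44 and 1.66 FPKM at day 25 and at 29.5 and 15.6 FPKM at day 40 (2.94 ± 0.34, adjusted p = 7.94e-05), and its call held in every alternative run. FOSB, already at 63.3, 70.5 and 95.8 FPKM, rose to 156.5 and 305.8 FPKM (1.52 ± 0.31, adjusted p = 0.0101), a call lost without library 13 (1.04, adjusted p = 0.231). FOS (-0.11), JUN (-0.10) and EGR1 (0.26), the best known of the class, did not pass. The list median was as high in the other populations, at 0.63 in GFP-mCherry+ cells (3 higher) and 0.69 in GFP-mCherry- cells (0 higher). EGR3 rose by 1.66 (adjusted p = 0.0443), and this call was lost when any single library of the 5 was left out.

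**Figure D4:**
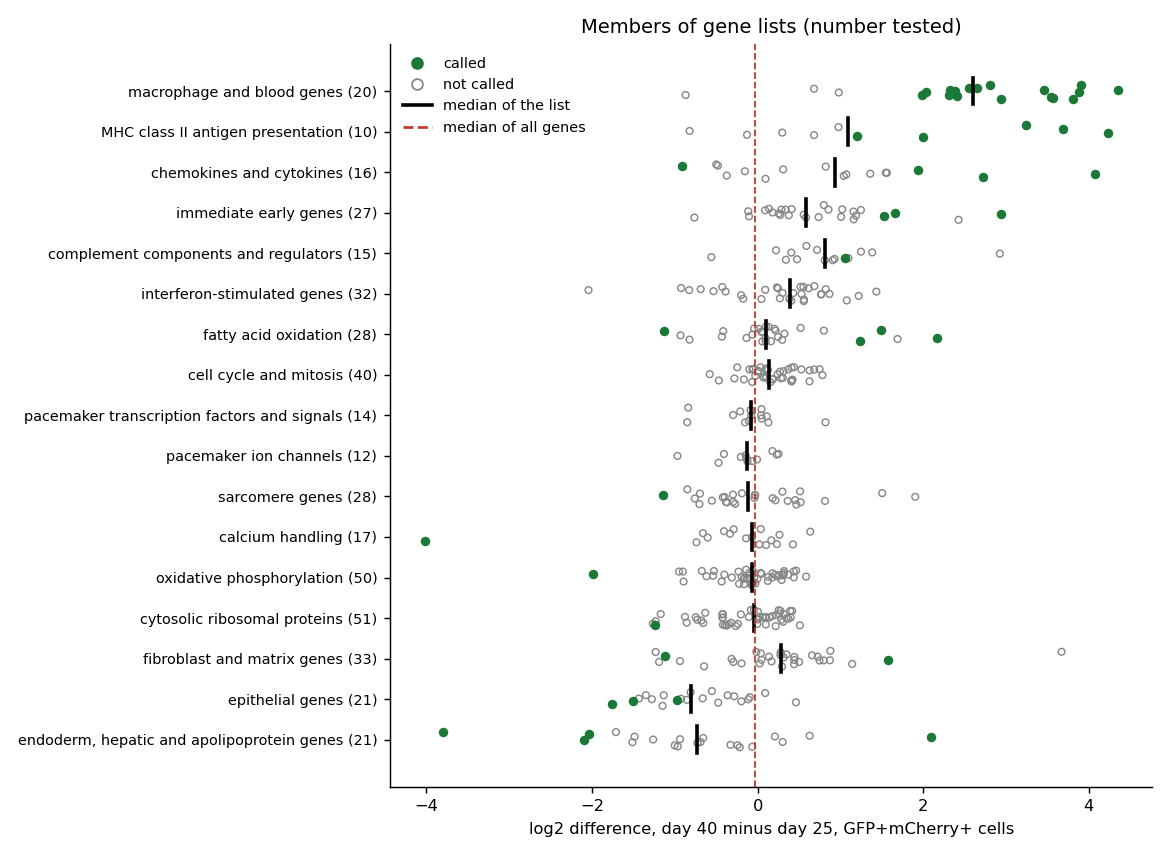
Each point is a tested gene of 1 of 17 lists, placed by its log2 difference, day 40 minus day 25, in GFP+mCherry+ cells, and filled where it was called. Black bars mark list medians and the dashed line the median of all genes (-0.04). The macrophage and blood list (median 2.60) and the MHC class II list (1.09) lie to the right, and the epithelial (-0.81) and endoderm (-0.73) lists to the left.

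Calls in the metabolic lists are set beside 2.28% of all genes higher and 1.96% lower. Of 28 tested fatty acid oxidation genes 3 rose and 1 fell (median 0.10). Besides LPL these were ACSL1, which activates fatty acids (1.24, adjusted p = 0.0154), PDK4, which restrains glucose oxidation (1.49, adjusted p = 0.0208), and ETFB, an electron carrier subunit (fell by 1.13, adjusted p = 0.0475). Without library 4, 7 or 13 the adjusted p was 0.0752, 0.0775 and 0.28 for ACSL1 and 0.14, 0.128 and 0.449 for ETFB, and without library 4, 7 or 10 it was 0.0652, 0.0968 and 0.124 for PDK4, so that LPL alone kept its call throughout. The list then had 1 higher gene without library 4 or 7. None of 23 glycolysis and glucose transport genes was called, although 21 lay below 0 (median -0.46, and -0.13 without library 13). SLC2A1, the basal glucose transporter, differed by -0.99 (adjusted p = 0.101) and HK2, hexokinase, by -0.90, and the list summed to 6263, 9853 and 10310 FPKM at day 25 and 6968 and 4684 FPKM at day 40. Without library 10, 1 of the 23 fell. Of 50 oxidative phosphorylation genes only the ATP synthase subunit gene ATP5D was called (fell by 1.99, adjusted p = 0.0239, median of the list -0.07), and that call was lost without library 4 (adjusted p = 0.0757), 7 (0.0918) or 13 (-1.42, adjusted p = 0.371). Without library 10, 4 of the 50 fell. Creatine kinase genes had 0 of 8 called.

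Growth and fetal genes gave few calls. None of 40 cell cycle and mitosis genes was called (median 0.14), with the proliferation markers MKI67 at 0.31 and TOP2A at 0.41, and none of 28 DNA replication genes. Of 17 tested oncofetal and let-7 target genes only the chromatin protein gene HMGA1 was called, with a list median of -0.79. HMGA1 stood at 41.6, 58.5 and 60.9 FPKM at day 25 and at 26.9 and 14.7 FPKM at day 40, fell by 1.37 (adjusted p = 0.0185), and missed the threshold without library 4 (adjusted p = 0.0736), 7 (0.0829) or 13 (-0.95, adjusted p = 0.338). Without library 1, 6 of the 17 fell, with HMGA2 at -1.38 (adjusted p = 0.0142, against -1.07 and 0.0695 with it) and LIN28A, a repressor of let-7, at -1.56 (adjusted p = 0.027). Of 51 ribosomal protein genes only RPS15 was called (fell by 1.24), and not without library 1 (adjusted p = 0.0501), 4 (0.141), 7 (0.112) or 13 (0.451). Without library 10, 3 of the 51 fell, and of the oncofetal genes 2 fell and 1 rose.

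Markers of other cell types were measured beside these results. Of 21 epithelial genes 3 fell and 0 rose, and 19 lay below 0 (median -0.81, against -0.45 in each of the other populations). CLDN6, a tight junction gene of embryonic epithelium, stood at 99.8, 194.7 and 138.6 FPKM at day 25 and at 42.5 and 38.3 FPKM at day 40 and fell by 1.76 (adjusted p = 0.0061), with an adjusted p of 0.0798 without library 13. CLDN3 and the protease inhibitor gene SPINT2 also fell and lost the call without library 4, 7, 10 or 13 (adjusted p from 0.0703 to 0.339), SPINT2 also without library 1. EPCAM (-1.15, adjusted p = 0.0889), CDH1 (-0.20) and KRT8 (-0.11) did not pass. After GC correction 2 genes of the list were lower, CLDN6 and EPCAM (-1.23, adjusted p = 0.0464), while CLDN3 (0.408) and SPINT2 (0.0771) were not called. The epithelial list summed to 2428 to 2537 FPKM at day 25 and to 1403 and 1741 FPKM at day 40, so that the day-40 sums were lower in both libraries, and its part in the other results was not tested.

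Of 21 tested endoderm, hepatic and apolipoprotein genes 3 fell and 1 rose (median -0.73, and 1.28 with 7 higher in GFP-mCherry- cells). APOC3, an inhibitor of lipoprotein lipase made in liver and gut, stood at 7.42, 25.6 and 51.6 FPKM and then at 1.65 FPKM and a value listed at 0. APOC3 fell by 3.81 ± 0.71 (adjusted p = 0.0056), a call lost without library 13 (-3.10, adjusted p = 0.13). APOA1, the main HDL protein, stood at 36.7, 65.6 and 86.3 FPKM and then at 12.3 and 13.9 FPKM and fell by 2.101 (adjusted p = 0.0122), with an adjusted p of 0.0634 without library 7 and 0.0891 without library 13. AHSG fell by 2.03 (adjusted p = 0.0394) and was not called without library 4 (0.107), 7 (0.159) or 13 (0.437). APOC1, which macrophages also make, rose by 2.09 ± 0.53 (adjusted p = 0.0361), with an adjusted p of 0.0756 without library 4, 0.12 without library 7 and 0.226 without library 10. ALB (-1.49), AFP (-0.94) and TTR (-1.51) did not pass. Without library 13 none of the list fell and 1 rose. The number that fell was 5 without library 1, 2 without library 4 and 1 without library 7.

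Of the 33 fibroblast and matrix genes 1 rose and 1 fell (median 0.28, and 0.84 with 10 higher in GFP-mCherry- cells). THBS2, a matricellular protein, stood at 2.21, 2.01 and 3.10 FPKM at day 25 and at 9.69 and 8.73 FPKM at day 40, rose by 1.58 (adjusted p = 0.0117), and missed the threshold without library 4 (adjusted p = 0.0501) or 13 (0.0809). FBLN2 fell by 1.11 and lost the call without library 1 (adjusted p = 0.056), 4 (0.0702), 7 (0.182) or 13 (0.481). FN1, the fibronectin gene, is listed at 0 in library 7 beside 2045 and 1614 FPKM in libraries 1 and 4, and its difference of 3.67 ± 2.72 became 0.06 with that value set to missing. Among 21 tested collagen genes only COL18A1 was called (fell by 1.53, adjusted p = 0.0464), and not without library 4, 7, 10 or 13 (adjusted p from 0.0542 to 0.392). The smooth muscle list had 1 of 17 called (LMOD1, lower, median -0.42) and the endothelial list 1 of 12 (EGFL7, lower, median 0.38). Both calls were lost without library 4 (adjusted p = 0.144 and 0.122), 7 (0.158 and 0.163) or 13 (0.4 and 0.435). Without library 1, 4 smooth muscle genes fell and 1 rose, 2 endothelial genes rose, 3 collagen genes fell, and 2 fibroblast genes rose and 2 fell. The 19 endothelial genes in the table summed to 97.8 to 293.7 FPKM at day 25 and 274.4 to 303.3 FPKM at day 40. WFDC2 was the one called gene of 8 tested in the lung-like secretory epithelium list (fell by 2.08, adjusted p = 0.00986, and 0.0767 without library 10), with 2 of the list higher without library 1.

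Neural and autonomic genes were counted beside 2.28% higher and 1.96% lower over all genes. Of 13 tested neuron and neural crest genes 2 rose (median 0.05). PHOX2A, a transcription factor of autonomic neurons, stood at 0.255, 0.153 and 0.151 FPKM at day 25 and at 1.78 and 2.36 FPKM at day 40, low at both days but without overlap. PHOX2A rose by 1.37 (adjusted p = 0.000518). S100B, a glial calcium-binding protein, rose by 1.00 (adjusted p = 0.0223) and was not called without library 4 (adjusted p = 0.0752), 7 (0.0802) or 10 (0.75, adjusted p = 0.11). Of 22 tested autonomic and angiotensin receptor genes, ADRB1, the cardiac beta adrenergic receptor, rose by 0.83 (adjusted p = 0.019) and ADORA1, the adenosine receptor that slows the node, fell by 1.09 (adjusted p = 0.0467). Both calls were lost without library 4 (adjusted p = 0.0756 and 0.151), 7 (0.0949 and 0.174) or 13 (0.127 and 0.522). Without library 1, 3 of the 22 fell. CHRNA1, a subunit of the muscle acetylcholine receptor, named after its values were seen, stood at 0.239, 0.457 and 0.113 FPKM and then at 2.97 and 3.09 FPKM (1.67, adjusted p = 7.22e-05). Its call held in every alternative that tested it, and it was too low for the filter at 5 FPKM.

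The remaining lists were counted only. Beside 2.28% higher and 1.96% lower over all genes, 1 of 15 tested complement genes rose (C2, median 0.81), 1 of 26 p53 targets (FUCA1), 1 of 29 integrins and laminins (ITGA4) and 1 of 20 epicardial genes (GPM6A). Among HOX genes 1 of 16 fell (HOXB2), 1 of 15 hypoxia genes (ADM), 1 of 11 desmosome genes (JUP), 1 of 7 pluripotency genes (L1TD1) and 2 of 31 Wnt genes (WNT6 and FZD2), and 1 of 26 anthracycline handling genes rose (NCF4) and 1 fell (GSTP1). None of 18 retinoic acid, 26 protease, 24 BMP and TGF-beta and 7 melanocyte genes was called. Complement had 5 called higher without library 1. There, 3 epicardial and 3 integrin and laminin genes were higher, while 4 Wnt, 3 hypoxia, 3 pluripotency, 3 BMP and TGF-beta, 2 retinoic acid and 2 melanocyte genes were lower. The opposite direction held 2 BMP and TGF-beta, 1 epicardial and 1 integrin gene, and anthracycline genes had 3 each way. Without library 4, 7 or 13 the complement, p53, integrin and laminin, epicardial, HOX, hypoxia and desmosome lists had no called gene. Without library 7 or 13 the pluripotency list had none and the Wnt list 1, without library 4 or 13 no anthracycline gene was lower, and without library 10 the complement, epicardial and HOX lists had none, 2 integrin and laminin genes and 1 protease gene were lower and 1 BMP and TGF-beta gene was higher.

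Several abundant secreted proteins depended on library 1, whose levels lay with day 40. SLPI, a protease inhibitor of secretions, stood at 768, 23.6 and 42.5 FPKM in libraries 1, 4 and 7 and at 1083 and 1004 FPKM at day 40. C3, the central complement protein, stood at 364.5, 24.9 and 41.02 FPKM and then at 553.6 and 562.5 FPKM, and NPY, a sympathetic neuropeptide, at 360, 14.6 and 35.2 FPKM and then at 339 and 269 FPKM. None of these 3 passed the test (SLPI 3.48, adjusted p = 0.13, C3 2.93, 0.0681, and NPY 2.36, 0.184). Without library 1 all 3 did, at 5.00 (adjusted p = 0.0124), 4.08 (0.00189) and 3.67 (0.00948). SFTPD, a lung surfactant protein, went from 3.14 (adjusted p = 0.152) to 4.72 (0.00799), KDR, the VEGF receptor gene, from 1.62 (0.179) to 2.44 (0.0158) and B2M, the MHC class I light chain, from 1.03 (0.139) to 1.49 (0.0117). The lung-like secretory list summed to 186 to 1277 FPKM at day 25 and 1399 to 1620 FPKM at day 40.

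The lower genes differed from the higher ones in base composition. Median transcript GC content was 62.2% for the genes called lower, 48.8% for those called higher and 50.1% for all genes, while the called macrophage genes lay at 55.6%. In the 413 genes of 65% GC and over the median difference was -0.80, with 67 lower and 2 higher, and in the 1792 genes from 60 to 65% it was -0.48, with 110 lower and 26 higher. The top bin was also the lowest in GFP-mCherry+ cells (-1.10) and in GFP-mCherry- cells (-0.61), as the plot by GC content shows. Each library was then corrected for GC by a loess curve, an alternative chosen after the trend was seen, and 362 genes were higher and 144 lower, of which 295 and 118 had been called before. The 17 called macrophage genes were called again. MIF, a cytokine gene with 67.1% GC that stood at 251, 199 and 246 FPKM at day 25 and at 62.9 and 15.0 FPKM at day 40, fell by 2.86 ± 0.60 (adjusted p = 0.0122) and by as much or nearly so in both other populations (-3.05, adjusted p = 0.00927, and -2.28, adjusted p = 0.0335). Its call was lost without library 13 (-1.86, adjusted p = 0.282).

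**Figure D5:**
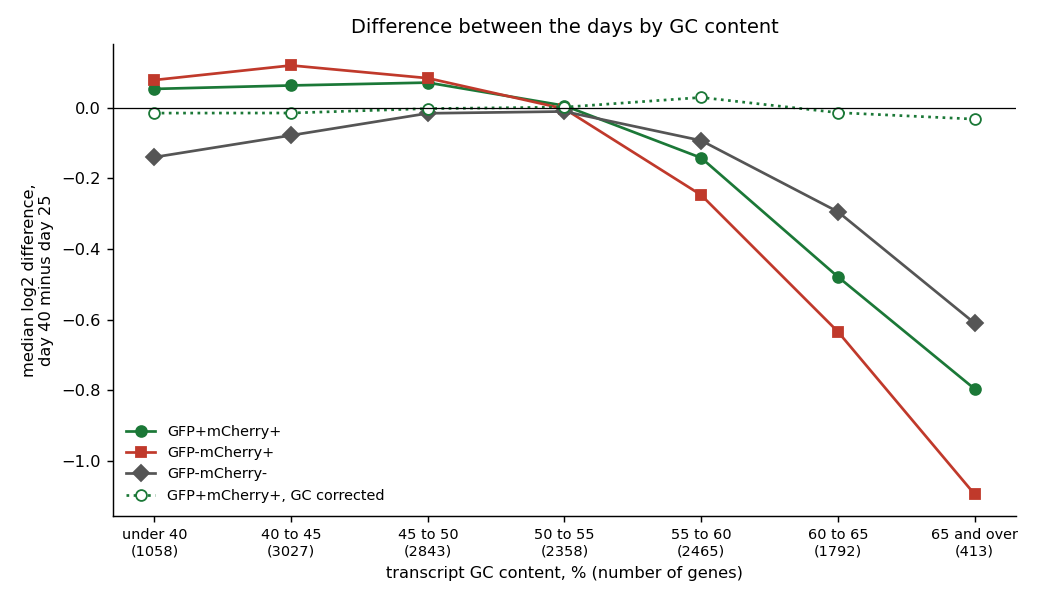
Median log2 difference, day 40 minus day 25, of the genes in 7 bins of transcript GC content (in %, with the number of genes), for GFP+mCherry+ cells (green), GFP-mCherry+ cells (red), GFP-mCherry- cells (grey) and GFP+mCherry+ cells after GC correction (dotted). In GFP+mCherry+ cells the median is above 0 in the 4 bins under 55% and falls to -0.80 in the top bin, in GFP-mCherry- cells it is below 0 in every bin, and the corrected medians lie between -0.03 and 0.03 once rounded.

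Others among the 12 largest falls kept or lost their calls in different ways. MCHR1, the melanin-concentrating hormone receptor gene, stood at 9.64, 19.8 and 19.8 FPKM at day 25 and at 2.01 and 3.24 FPKM at day 40 and fell by 2.22 ± 0.31 (adjusted p = 0.000354). ELMOD1 stood at 10.8, 20.5 and 19.9 FPKM and then at 2.26 and 3.50 FPKM and fell by 2.18 ± 0.40 (adjusted p = 0.00484). The calls of MCHR1 and ELMOD1 held in every alternative run. PKP3, a plakophilin of epithelial junctions, fell by 2.46 (adjusted p = 0.00768) and missed the threshold only after GC correction (-1.59, adjusted p = 0.0636). CASKIN1 (-2.80), GNG8 (-2.64), TRAPPC5 (-2.60), H1FX (-2.29) and SSSCA1 (-2.16) were called lower but lost the call without library 13, at adjusted p = 0.273, 0.634, 0.404, 0.236 and 0.297. CASKIN1, GNG8 and TRAPPC5 also lost it without library 4 (adjusted p = 0.0752, 0.149 and 0.061) or 7 (0.0612, 0.164 and 0.066), and SSSCA1 without library 7 (0.0522). The last 2 of the 12 largest rises not yet given were SRGN, the proteoglycan of leukocyte granules, which stood at 0.925, 2.5 and 2.16 FPKM and then at 106 and 34.2 FPKM (4.47 ± 0.54, adjusted p = 9.85e-05), and RGS1, a regulator of chemokine receptor signalling, which stood at 2.04, 5.85 and 6.88 FPKM and then at 94.8 and 60.7 FPKM (3.81 ± 0.53, adjusted p = 0.000355).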

How the data were processed

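RNA was sequenced from 17 sorted libraries in 6 groups of population and day. Per the submitters' processing notes, the build was hg19 and the software included Cufflinks 2.1.1, STAR 2.5.2b, cutadapt and bcl2fastq 2.19, with no settings given. The authors deposited a table of FPKM, a unit inferred from Cufflinks and from the range of values, since the header gives none. Its 20368 rows held 71 duplicate identifiers and gave 20218 genes. Columns were matched by the library number that opens each title, and the labels hold no library numbered 16. Fragment counts were not used here, so the depth and counting error are unknown.

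Values became log2(FPKM + 1), with no rescaling. Genes reaching 1 FPKM in 2 or more of the 5 libraries were tested. Group means were fitted over all 17 libraries (11 residual degrees of freedom) with limma 3.58.1 in R 4.3.3, with a trend, and p-values were adjusted by Benjamini-Hochberg over all genes tested. The steps were tested on simulated data.

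The members and gene lists were chosen with earlier results of these data known. The 44 first lists are textbook sets, and 13 more were written after values were seen. The genes named were SHOX2, MYH6, ISL1, TBX3, TBX18, HCN4, NKX2-5 and TNNT2, the 12 largest called changes each way with a mean of at least 5 FPKM and no overlap, called and leading members of lists, the leading differences between populations, and further genes chosen after their values were seen. Alternatives were quantile normalization, median-of-ratios scaling, sample quality weights, a pseudocount of 0.1, no filter, 5 FPKM as the filter, a block, only the 5 libraries, each library left out and, added later, 42 values listed at 0 in single libraries set to missing, a loess correction for GC content (98.6% of genes matched), and that correction without library 13. Some genes are not reported here.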

Additional observations from a re-analysis of the deposited data

Results flagged for a closer look

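A test of the difference between populations singled out 35 named differences, each given below as the day-40 minus day-25 change in GFP+mCherry+ cells minus that in another population, on the log2 scale, with limma's adjusted p. Against GFP-mCherry+ cells there was 1, SASH3 (2.65 and 0.0117). The other 34 were against GFP-mCherry- cells. Genes were filtered on the GFP+mCherry+ libraries alone, so the signs of these differences may partly follow from the filter.

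Of chemokine and cytokine genes these were CCL4 (3.51, 0.00177), CCL3 (2.90, 0.0152), IL8 (3.48, 0.00894) and IL1B (3.30, 0.00574). Of antigen presentation genes they were HLA-DRA (3.24, 0.00132), HLA-DMB (3.36, 0.0164), HLA-DPA1 (2.20, 0.0198) and CTSS (2.62, 0.0231). Of macrophage surface, lysosomal and complement genes they were LAPTM5 (4.48, 0.00496), MS4A7 (3.54, 0.00258), FCGR3A (3.03, 0.00853), C1QA (2.75, 0.0211), PTPRC (2.04, 0.0478) and SRGN (4.70, 0.00553). Receptors, adaptors and enzymes of phagocytes followed with LCP2 (3.82, 0.00132), ITGAL (3.15, 0.00143), NCKAP1L (2.73, 0.00156), CLEC5A (2.54, 0.00156), SASH3 (2.94, 0.00132), FCGR2B (2.57, 0.0055), CYBB (2.75, 0.0133), TLR2 (2.12, 0.00894), TLR7 (1.38, 0.0319), CX3CR1 (2.01, 0.00606), TREM2 (2.69, 0.0225) and MSR1 (2.62, 0.0059). The transcription factors were SPI1 (2.43, 0.0176), RUNX3 (1.64, 0.0457) and PHOX2A (1.27, 0.0252). Lipid genes were APOC2 (2.87, 0.0155), LPL (2.87, 0.00574) and APOA1 (-2.70, 0.0363), and receptors of transmitters CHRNA1 (1.52, 0.00718) and ADORA1 (-1.74, 0.0417).

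HLA-DRA, LCP2 and LPL passed the test in every alternative that could give these differences, which leaves out the fit of only the 5 libraries, and the other 32 did not in at least 1. With a pseudocount of 0.1 none of those 32 passed. Without library 10 the adjusted p was 0.0738 for HLA-DMB, 0.0664 for CCL3, 0.0597 for APOC2, 0.0927 for C1QA, 0.0978 for CTSS, 0.0708 for HLA-DPA1, 0.0978 for TREM2, 0.0597 for CYBB, 0.077 for SPI1, 0.0956 for TLR7, 0.103 for PTPRC, 0.0954 for APOA1 and 0.143 for RUNX3. Without library 7 it was 0.0622 for SASH3 against GFP-mCherry+ cells, 0.0506 for C1QA, 0.0506 for CTSS, 0.0576 for TREM2, 0.088 for TLR7, 0.111 for RUNX3, 0.139 for PTPRC, 0.102 for APOA1, 0.0697 for PHOX2A and 0.121 for ADORA1. Without library 4 it was 0.0507 for SASH3 against GFP-mCherry+ cells, 0.0662 for TLR7, 0.0768 for RUNX3, 0.112 for PTPRC, 0.0858 for APOA1, 0.0602 for PHOX2A and 0.107 for ADORA1. Without library 13 it was 0.14 for PTPRC, 0.103 for APOA1, 0.1 for PHOX2A and 0.258 for ADORA1, and without library 1 0.0806 for RUNX3 and 0.0514 for TREM2.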

How the results depend on the processing

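Of 98 called genes named, 46 kept their call in each of the 16 alternatives that tested them, 52 lost it in at least 1, and none changed sign. Genes too low for the filter at 5 FPKM, such as SPI1 and CASR, were not tested in that alternative. Of those not called 47 changed sign in at least 1. The counts of genes higher and lower in GFP+mCherry+ cells (322 and 277) were 159 and 180 with a filter at 5 FPKM, where fewer genes were tested, 604 and 925 with sample quality weights, 156 and 150 with only the 5 libraries fitted, and 200 to 564 and 31 to 541 with each library left out. After GC correction 144 were lower, and 27 with library 13 also left out. In GFP-mCherry+ cells (90 and 556) weights gave 283 and 1344, quantile normalization 269 lower, GC correction 52 and 30, and GC correction without library 13 38 lower. In GFP-mCherry- cells (173 and 237) weights gave 528 and 936, the filter at 5 FPKM 95 and 149, a pseudocount of 0.1 142 lower, and GC correction 157 lower. The number of changes that differed from GFP-mCherry+ cells (1) was 0 with a pseudocount of 0.1 or a filter at 5 FPKM, 44 with no filter, 2 with quantile normalization or GC correction, 11 with weights, 48 with GC correction without library 13, and 0 to 53 with each library left out. That against GFP-mCherry- cells (160) was 6, 57 and 269 with the pseudocount, the filter at 5 FPKM and weights, and 102 to 162 with each library left out. The cause of these shifts was not tested.

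A replicate block formed from each run of 3 library numbers, which the labels do not call pairs, had a consensus correlation of 0.12 and gave 317 higher and 233 lower genes in GFP+mCherry+ cells, 87 and 525 in GFP-mCherry+ cells, 179 and 239 in GFP-mCherry- cells, and 16 and 208 differences between populations. With 2 libraries at day 40 and no read depth, small changes of low genes cannot be resolved.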

Other observations

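Genes outside the lists, chosen after their values were seen, also differed between the days of GFP+mCherry+ cells. A2M, a broad protease inhibitor of plasma, stood at 75.7, 75.5 and 74.4 FPKM at day 25 and at 418 and 263 FPKM at day 40, with close day-25 libraries. It rose by 2.13 (adjusted p = 0.0102), and the call was lost without library 10 (1.79, adjusted p = 0.0618). NALCN, a sodium leak channel gene, rose by 1.58 (adjusted p = 0.0257), and ITPR1, an intracellular calcium release channel gene, by 1.25 (adjusted p = 0.0362). Both calls were lost without library 4 (adjusted p = 0.111 and 0.131), 7 (0.0933 and 0.108) or 13 (0.0894 and 0.413), and that of NALCN also without library 10 (0.102). PTGS2, the inducible prostaglandin synthase gene, rose by 1.73 (adjusted p = 0.0185) and missed the threshold without library 7 (0.065), 10 (0.0926) or 13 (0.0538).

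Among genes of receptors and embryonic ectoderm, CASR, the calcium-sensing receptor gene, stood at 1.87, 1.84 and 1.95 FPKM at day 25 and at 0.113 and 0.0959 FPKM at day 40. Its libraries were close within each day, it fell by 1.39 (adjusted p = 0.000354), and the call held in every alternative that tested it. CASR was too low for the filter at 5 FPKM. The transcription factor genes TFAP2A and GATA3 fell by 1.94 (adjusted p = 0.0134) and 1.55 (adjusted p = 0.0205). Both calls were lost without library 4 (adjusted p = 0.0638 and 0.0752) or 7 (0.0634 and 0.0858), that of TFAP2A without library 13 (0.132) and that of GATA3 without library 10 (0.144). MDK, a heparin-binding growth factor of embryonic tissue, stood at 410.4, 484.7 and 407.6 FPKM and then at 168.8 and 107.4 FPKM and fell by 1.68 (adjusted p = 0.00354), with an adjusted p of 0.102 without library 13.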
